A study of Mus musculus with 5 samples.

Results

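The genes of vitamin A metabolism and retinoic acid response described here are Stra6, Rdh10, Dhrs3, Aldh1a1, Aldh1a3, Crabp2, Rara, Rarg and Cyp26b1, 9 of the 24347 gene symbols measured. They were picked by symbol for their role in the pathway, with their levels in these libraries already known, and the rows of each symbol were summed in each library. All 9 were listed in all 5 libraries. The cells were sorted out of precancerous mammary lesions that arose in MMTV-Wnt-1 transgenic mice on a mixture of FVB, SJL and C57BL/6 backgrounds, in which the mouse mammary tumour virus promoter drives Wnt-1 in the mammary epithelium. Both populations therefore carry the transgene. There were 2 libraries of keratin 6a positive precancerous stem cells (Krt6a+, numbered 2 and 3) and 3 of cells positive for whey acidic protein (WAP+, numbered 1 to 3), and the comparison addressed how expression in the Krt6a+ cells differs from that in the WAP+ cells, which the labels call differentiated. Each library was amplified from a small pool of cells, and the sort used antibody against TVA, the receptor of an avian leukosis virus. The labels give neither the age of the animals, nor how TVA marked each population, nor whether the libraries came from separate animals, so errors and p-values measure only the spread between these libraries, which may be technical.

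Retinol from the blood enters cells through the membrane receptor STRA6. RDH10 oxidises retinol to retinaldehyde and DHRS3 reduces it back, so these enzymes work in opposite directions on the same pair of molecules. Retinaldehyde dehydrogenases of the ALDH1A family make retinoic acid, CRABP2 carries it to the nucleus, retinoic acid receptors bind DNA as partners of retinoid X receptors, and CYP26 enzymes break retinoic acid down. In stratified epithelia retinoids restrain keratinisation, and vitamin A deficiency is known for turning glandular linings squamous. Stra6 is also known as a gene that Wnt-1 and retinoic acid induce in mouse mammary cells.

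Levels are in FPKM, fragment counts normalised for transcript length and for the number of mapped fragments, which allows levels of different genes to be set side by side. Scaled FPKM is the same value divided by a factor for the library, between 0.873 and 1.14. The libraries had 8112 to 8900 genes at FPKM 1 or more, and their fragment totals are not known. The labelled cell types were checked against their markers. Summed scaled FPKM of Krt6a, Krt5 and Krt14 was 4182 and 3342 in Krt6a+ and 213 to 1165 in WAP+ libraries, and that of the milk genes Wap, Csn2, Csn3 and Lalba 114 and 469 against 1060 to 4515. Most of the milk sum came from Csn3, and Csn2 overlapped between populations (scaled FPKM 1.89 and 0 against 0, 270 and 1.18). Wap and Lalba were listed at 0 in both Krt6a+ libraries and were above 0 in all WAP+ libraries. Luminal markers (Krt8, Krt18, Krt19 and Epcam) summed to 1409 in Krt6a+ library 2, 3292 in Krt6a+ library 3 and 7854 to 9061 in WAP+ libraries, so luminal transcripts were present in both populations and moved with them. Of the other cell types, 4 of 5 adipocyte markers were listed at 0 in all libraries. The fifth, Fabp4, was at 0 in both Krt6a+ libraries and at FPKM 2188, 65.8 and 20.3 in WAP+ libraries 1 to 3. Of 7 leukocyte markers, 4 were listed at 0 in all libraries. Leukocyte markers summed to 6.63 and 18.9 in Krt6a+ and 8.87 to 29.1 in WAP+ libraries, mostly from Cd68, which was above 0 in every library. Endothelial markers summed to at most 7.31 (WAP+ library 1). Fibroblast markers summed to 58.7 and 186 in Krt6a+ and 9.46 to 96.4 in WAP+ libraries, mostly from Dcn. The part of these cell types in the differences below was not tested. A listed 0 may stand for a failed estimate: the glycolytic genes Gapdh and Eno1, which all cells use, were listed at 0 in 3 and 5 libraries. The deposited status was OK for every row, those of Gapdh and Eno1 included, so it does not mark such cases.

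Of the genes described here, 6 were higher in both Krt6a+ libraries than in any WAP+ library on the scaled values: Dhrs3, Aldh1a1, Aldh1a3, Rdh10, Stra6 and Rarg. Crabp2 was lower in both, and Rara and Cyp26b1 overlapped. Without Aldh1a1, which was too low to be tested, 5 of the 7 tested genes were higher without overlap and 1 was lower, and of all 9682 tested genes 17.4% were higher and 17.4% lower without overlap. Since the genes were chosen with this contrast in view, their differences are given as a description, with moderated standard errors and no p-values. With limma and an adjusted p threshold of 0.05, 0.692% of tested genes passed (25 higher and 42 lower, or 39 and 39 after quantile normalization). Nothing is read from that threshold for the genes described here. Of the 9 genes, 7 reached FPKM 1 in at least 2 libraries and entered that fit, and Aldh1a1 and Cyp26b1 did not. Dhrs3 entered it only through the Krt6a+ libraries, where it is high. In sorted pools, fewer cells of a type and less RNA per cell cannot be told apart.

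**Figure D1:**
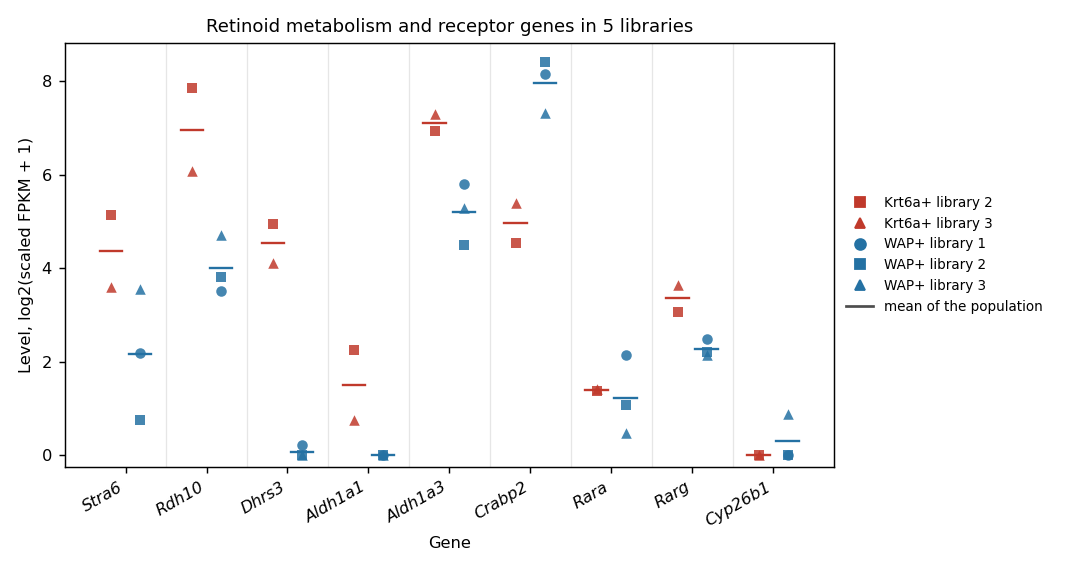
Level of each gene as log2(scaled FPKM + 1), ordered by role from uptake to breakdown. Red symbols are the 2 Krt6a+ libraries, blue symbols the 3 WAP+ libraries, symbol shapes give the library number and horizontal lines the mean of each population. Dhrs3 sits near 0 in all WAP+ libraries, Crabp2 is the one gene with all WAP+ symbols above both Krt6a+ symbols, and the Krt6a+ symbols of Stra6 and Rdh10 lie far apart.

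Uptake came first in the order of the pathway. Stra6, the receptor for retinol bound to its carrier in blood, had FPKM 33.7 and 12.6 in Krt6a+ library 2 and library 3, against 4.07, 0.61 and 9.35 in WAP+ libraries 1 to 3. WAP+ library 3 came close to Krt6a+ library 3, with scaled values of 10.7 and 11.2, and WAP+ library 2 was the lowest. Scaled values averaged 22.8 ± 16.4 (SD, n = 2) against 4.99 ± 5.16 (SD, n = 3), with a log2 difference (Krt6a+ less WAP+) of 2.21 ± 0.91 (SE). It was 1.44 without Krt6a+ library 2 and 2.98 without Krt6a+ library 3.

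Stra6 has 4 RefSeq transcripts in the files, on the plus strand of chromosome 9 (mm10, 58129088 to 58153997), and 2 of them held all of its FPKM. NM_001162475, which starts furthest upstream, had 90.5% of it in Krt6a+ library 2, 34.1% in Krt6a+ library 3, 100% in WAP+ libraries 1 and 2 and 42.6% in WAP+ library 3. The rest was given to NM_001162476, whose start lies inside the span of the longer transcript, at 58134075. The upstream transcript thus held anything from a minor part to all of the signal, and libraries of both populations had either pattern.

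Both enzymes of retinol and retinaldehyde interconversion were higher in Krt6a+ libraries. Rdh10, the retinol dehydrogenase needed for retinoic acid synthesis in the embryo, had FPKM 225 and 75.4 in Krt6a+ libraries, against 11.9, 11.9 and 21.9 in WAP+ libraries. Both Krt6a+ libraries were above all WAP+ libraries, and Krt6a+ library 2 stood well above Krt6a+ library 3. The deposited 95% bounds, which cover counting and assignment error within a library, were 217 to 233 in Krt6a+ library 2, 69.9 to 80.9 in Krt6a+ library 3 and at most 24.4 in a WAP+ library. Scaled values averaged 148 ± 115 (SD, n = 2) against 16.2 ± 7.76 (SD, n = 3), with a log2 difference of 2.95 ± 0.63 (SE), or 7.74-fold on the log2(FPKM + 1) scale. Without Krt6a+ library 2 the log2 difference was 2.07 and without Krt6a+ library 3 it was 3.84. Its 1 transcript lies on the plus strand of chromosome 1 (16105882 to 16132550).

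Dhrs3, the retinaldehyde reductase, had FPKM 29.4 and 18.4 in Krt6a+ libraries, with deposited bounds of 25.3 to 33.5 and 14.9 to 22.0. In WAP+ library 1 it was at 0.18, with bounds of 0 to 0.70, and in WAP+ libraries 2 and 3 it was listed at 0. It was thus measured in both Krt6a+ libraries and listed at or near 0 in every WAP+ library. The upper bound in WAP+ libraries 2 and 3 was itself listed at 0, and a listed 0 may stand for a failed estimate, although none was flagged as such. The log2 difference was 4.46 ± 0.65 (SE) with a pseudocount of 1. A pseudocount of 0.1 gave 7.34 and one of 5 gave 2.44, where Rdh10 (2.67) and Crabp2 (-2.84) had larger differences. Without Krt6a+ library 2 or 3 it was 4.05 or 4.88. Inside the Krt6a+ libraries the FPKM of Rdh10, the opposing enzyme, was 7.64 and 4.09 times that of Dhrs3, and in WAP+ library 1 it was 65.3 times. Rdh10 was thus the more abundant of the pair in each of these libraries.

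All of the Dhrs3 FPKM was given to NM_001172424, on the plus strand of chromosome 4 (144892827 to 144927645), and the other transcript, NM_011303, was listed at 0 in every library. The DNA before the start given these reads is shown here because the gene was listed at or near 0 in every WAP+ library. These and the following promoter sequences are the 250 bases before an annotated start, from RefSeq on GRCm38.p6, the assembly behind mm10, in the direction of the gene. Windows were matched for 6 of the 9 genes, 16 windows in all, some of them overlapping, and Aldh1a3, Rdh10 and Crabp2 had no entry. Capitals mark the hexamer AGGTCA, its variant AGTTCA, its variant GGGTCA or its variant GGTTCA on either strand, the core to which retinoic acid receptors and many other nuclear receptors bind. The Dhrs3 window, at chr4:144892577-144892826, held none of them and is therefore all in lower case, and 38.6% of the 32851 mouse promoter windows of this length held at least 1. Pairs of these hexamers in direct repeat spaced by 1, 2 or 5 bases, the arrangement of classical retinoic acid response elements, were in 0.164%, 0.174% and 0.0883% of all windows and in 0 of the 16.
Dhrs3, NM_001172424: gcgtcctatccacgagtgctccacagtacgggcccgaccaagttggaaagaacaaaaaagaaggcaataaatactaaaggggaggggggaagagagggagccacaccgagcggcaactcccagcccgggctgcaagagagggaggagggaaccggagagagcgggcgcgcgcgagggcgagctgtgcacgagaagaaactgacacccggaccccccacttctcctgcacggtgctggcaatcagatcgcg

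The window before the upstream start of Stra6, at chr9:58128838-58129087, is shown because most of the Stra6 FPKM of Krt6a+ library 2 was given to it. It too held none of the hexamers.
Stra6, NM_001162475: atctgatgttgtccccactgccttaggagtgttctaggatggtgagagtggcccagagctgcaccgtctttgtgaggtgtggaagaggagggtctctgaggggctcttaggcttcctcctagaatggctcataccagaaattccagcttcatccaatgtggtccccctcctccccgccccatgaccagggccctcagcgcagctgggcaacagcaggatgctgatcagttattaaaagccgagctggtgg

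Among the retinaldehyde dehydrogenases, Aldh1a3 carried most of the signal. Aldh1a3, which makes retinoic acid and is used as a marker of luminal progenitors in the mammary gland, had FPKM 119 and 175 in Krt6a+ libraries, against 62.3, 19.7 and 33.2 in WAP+ libraries. The groups did not overlap, and WAP+ library 1 was the highest of its population. Scaled values averaged 138 ± 24.0 (SD, n = 2) against 38.1 ± 16.5 (SD, n = 3), with a log2 difference of 1.92 ± 0.47 (SE), 3.78-fold on the log2(FPKM + 1) scale. The gene lies on the minus strand of chromosome 7 (66390893 to 66427477) with 1 transcript. Its direction went against that of the luminal markers, whose sum was lower in Krt6a+ libraries.

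Aldh1a1, whose activity is measured in stem cell assays, was far lower. It had FPKM 3.69 in Krt6a+ library 2, with bounds of 2.62 to 4.76, and 0.78 in Krt6a+ library 3, with bounds of 0.19 to 1.37, and was listed at 0 in all 3 WAP+ libraries. Aldh1a1 (chromosome 19, plus strand, 20601982 to 20643462) did not reach the level needed for testing. The close paralog Aldh1a7 had FPKM 3.30 in Krt6a+ library 3, 4.85 in WAP+ library 1 and was listed at 0 elsewhere, and how reads shared by the paralogs were split is uncertain. Aldh1a2 and Aldh8a1, the other dehydrogenases of this step, were listed at 0 in every library.

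Crabp2, the carrier that hands retinoic acid to its nuclear receptors, went the other way. It had FPKM 21.7 and 46.6 in Krt6a+ libraries, against 325, 307 and 138 in WAP+ libraries. Even the lowest WAP+ library, library 3, with bounds of 124 to 151, was above the upper bound of Krt6a+ library 3, 54.2. Scaled values averaged 31.7 ± 13.6 (SD, n = 2) against 260 ± 92.6 (SD, n = 3), with a log2 difference of -2.99 ± 0.47 (SE), 7.95-fold higher in WAP+ libraries on the log2(FPKM + 1) scale. The luminal marker sum was lower in Krt6a+ libraries as well. Within Krt6a+ both Crabp2 and the luminal sum were lower in library 2 than in library 3, while within WAP+ library 3 had the highest luminal sum (9061) and the lowest Crabp2. The part of luminal transcripts in the difference was not tested. Crabp2 lies on the plus strand of chromosome 3 (87948693 to 87953372).

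Set against Aldh1a3 inside each library, where the scaling factor cancels, Crabp2 was at 0.182 and 0.266 times the FPKM of Aldh1a3 in Krt6a+ libraries. In WAP+ libraries it was at 5.21, 15.6 and 4.15 times. The synthetic enzyme was thus the more abundant transcript in both Krt6a+ libraries and the carrier in all 3 WAP+ libraries. This pair was chosen after its values were seen.

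The receptors were expressed at low levels. Rarg, the retinoic acid receptor that predominates in skin, had FPKM 7.23 and 13.0 in Krt6a+ libraries, against 5.27, 3.27 and 2.97 in WAP+ libraries, without overlap. Scaled values averaged 9.46 ± 2.95 (SD, n = 2) against 3.87 ± 0.66 (SD, n = 3), with a log2 difference of 1.08 ± 0.59 (SE). With only the highest transcript counted the log2 difference was 1.94. Rara, the widely expressed receptor, had FPKM 1.54 and 1.90 in Krt6a+ libraries, against 3.87, 0.99 and 0.34 in WAP+ libraries, so the WAP+ values lay on both sides of the Krt6a+ values. Its log2 difference was 0.17 ± 0.70 (SE).

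The 2 Rara transcripts with signal were split by population. All of the Rara FPKM was given to NM_001177303 (chromosome 11, plus strand, start 98939711) in both Krt6a+ libraries and to NM_001176528 (start 98960471) in all 3 WAP+ libraries, and each transcript was listed at 0 in the other population. These starts belong to the same gene and the spans share their end at 98974942. The deposited bounds were 0.99 to 2.10 and 1.25 to 2.55 for NM_001177303 in Krt6a+ libraries and 2.82 to 4.92, 0.50 to 1.48 and 0 to 0.68 for NM_001176528 in WAP+ libraries 1 to 3. At so low a level the assignment of reads to 1 of 4 transcripts is uncertain, and with the highest transcript alone in place of the sum the log2 difference of Rara was -1.21.

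The window before the Rara start given reads in Krt6a+ libraries, at chr11:98939461-98939710, is shown because of this split. It lies inside the span of the longer Rara transcripts, outside annotated exons, and held 4 of the hexamers. Of all windows 0.314% held at least 4, a cutoff equal to the count in this window. Any hexamer was found in 3 of the 16 windows of the genes described here, against 38.6% of all windows. The 16 windows belong to 6 genes and some overlap, so they are not separate units and nothing is read from this share. None of the 4 hexamers in the Rara window formed one of the direct repeats searched. No window before the NM_001176528 start was in the table.
Rara, NM_001177303: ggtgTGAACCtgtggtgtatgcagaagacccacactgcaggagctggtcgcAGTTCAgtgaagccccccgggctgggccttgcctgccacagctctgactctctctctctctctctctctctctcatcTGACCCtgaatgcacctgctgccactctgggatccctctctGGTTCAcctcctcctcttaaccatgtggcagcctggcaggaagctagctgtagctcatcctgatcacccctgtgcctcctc

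The Rarg transcripts followed no such split. NM_011244, which starts upstream on the minus strand of chromosome 15 (102234938 to 102257522), held 34.8% of the Rarg FPKM in Krt6a+ library 2 and 100% in Krt6a+ library 3 and WAP+ library 1. NM_001042727, which starts at 102246500 inside that span, held the remaining 65.2% in Krt6a+ library 2 and 100% in WAP+ libraries 2 and 3. Each transcript thus had signal in both populations. As for Rara, the assignment of reads between overlapping transcripts is uncertain at such levels. The windows before the 2 starts, at chr15:102257523-102257772 and chr15:102246501-102246750, are set side by side because libraries differed in the start given the reads. The first has a GC content of 74.4% and 1 hexamer, and the second has 52.4% and none.
Rarg, NM_011244: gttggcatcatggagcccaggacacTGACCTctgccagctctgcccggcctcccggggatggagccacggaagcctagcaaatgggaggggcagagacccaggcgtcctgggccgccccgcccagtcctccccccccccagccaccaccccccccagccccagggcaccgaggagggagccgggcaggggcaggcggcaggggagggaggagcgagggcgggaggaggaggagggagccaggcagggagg
Rarg, NM_001042727: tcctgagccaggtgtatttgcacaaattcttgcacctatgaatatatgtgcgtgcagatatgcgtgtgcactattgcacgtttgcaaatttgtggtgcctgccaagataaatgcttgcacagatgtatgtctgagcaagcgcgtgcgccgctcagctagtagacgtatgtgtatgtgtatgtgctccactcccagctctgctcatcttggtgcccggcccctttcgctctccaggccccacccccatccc

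**Figure D2:**
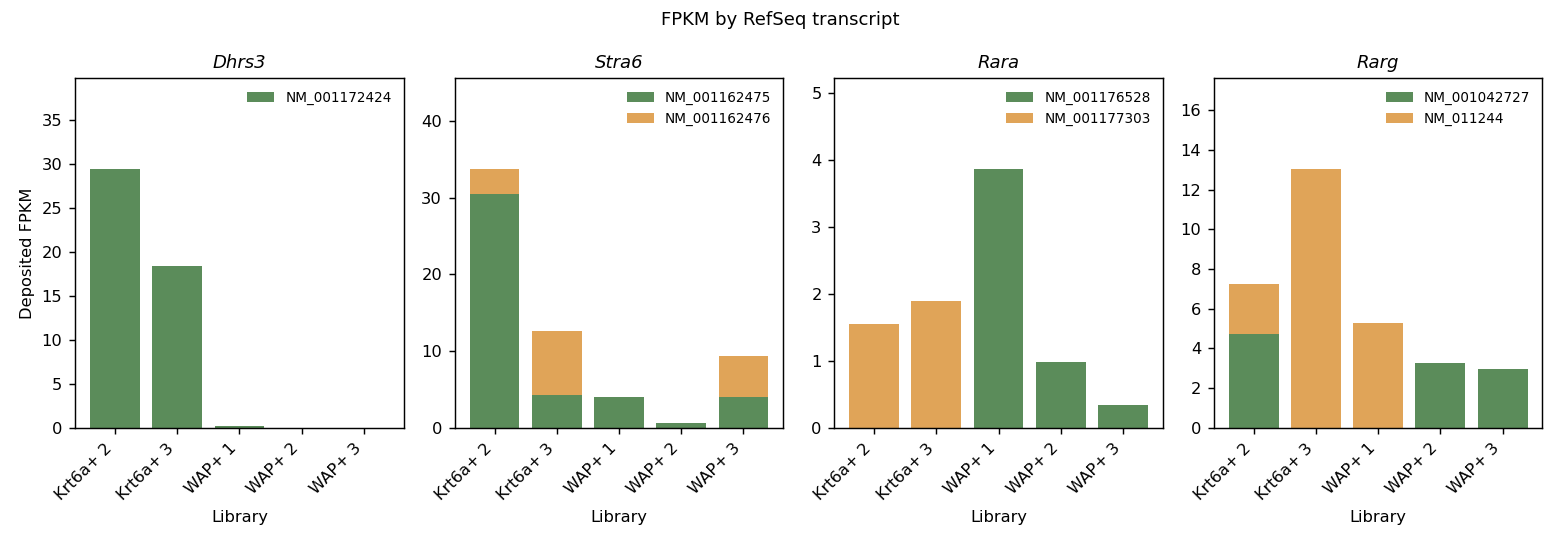
Deposited FPKM (vertical axes, each from 0 and on its own scale) of the RefSeq transcripts above 0 for Dhrs3, Stra6, Rara and Rarg, stacked per library. Rara is given to NM_001177303 in the Krt6a+ libraries and to NM_001176528 in the WAP+ libraries, while the transcripts of Stra6 and Rarg vary within both populations.

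Breakdown of retinoic acid was barely represented. Cyp26b1, a cytochrome P450 that inactivates retinoic acid, was listed at 0 in both Krt6a+ libraries and in WAP+ libraries 1 and 2, and had FPKM 0.73, with bounds of 0.36 to 1.10, in WAP+ library 3, all in NM_001177713. It lies on the minus strand of chromosome 6 (84571414 to 84593908). Its relatives Cyp26a1 and Cyp26c1 were listed at 0 in all libraries, and Cyp2s1, a P450 that also acts on retinoic acid, had FPKM 1.05 in Krt6a+ library 2 and 0.31 in WAP+ library 2 and was listed at 0 elsewhere.

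The order of the levels differed between the populations. By mean scaled FPKM the order in Krt6a+ libraries was Rdh10, Aldh1a3, Crabp2, Dhrs3, Stra6, Rarg, Aldh1a1, Rara and Cyp26b1. Ranges of neighbours overlapped between Rdh10 and Aldh1a3, between Crabp2, Dhrs3, Stra6 and Rarg in turn, and between Aldh1a1 and Rara. In WAP+ libraries it was Crabp2, Aldh1a3, Rdh10, Stra6, Rarg, Rara, Cyp26b1, Dhrs3 and Aldh1a1, and only the steps from Crabp2 to Aldh1a3 and from Rarg to Rara had ranges that did not overlap. For Rarg and Rara the gap was as small as 3.397 to 3.395. None of the 9 genes shared exon bases with another gene of the GENCODE annotation, which bears on counts made without strand.

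Genes whose profile over the 5 libraries was most like that of Dhrs3, by the root mean square difference of centred log2 values, were Calml3, an epithelial calmodulin-like protein (0.12), 1190005I06Rik (0.30) and Lst1 (0.37). In Krt6a+ libraries Calml3 was at FPKM 29.4 and 14.9, Lst1 at 22.0 and 8.68, and 1190005I06Rik at 18.3 and 22.0, and each was listed at 0 in all WAP+ libraries. For Aldh1a3 they were Atp10a, a phospholipid flippase (0.12), Hcar2, the receptor for nicotinic acid (0.19), and Frrs1, a ferric reductase (0.21). Hcar2 had FPKM 28.4 and 40.9 against 19.7, 4.14 and 6.81, and Frrs1 19.0 and 23.7 against 6.37, 2.76 and 4.41. Likeness over 5 libraries was ranked among all tested genes and carries no test.

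The rest of the pathway was described from 63 further genes listed by their known roles, of which 31 were tested and 14 were listed at 0 in every library. Over all tested genes 0 of the 31 were higher and 1, Tgm2, was lower (limma, adjusted p under 0.05), against 0.258% and 0.434% of all tested genes. Tgm2 entered the fit only through WAP+ libraries, where it was high. Before adjustment, p was under 0.05 for 4 higher and 7 lower genes (limma), against 7.66% and 9.45% of all tested genes. These shares are also the background for the counts per role given below. The median log2 difference of the 31 was 0.20, and that of all tested genes was -0.01.

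**Figure D3:**
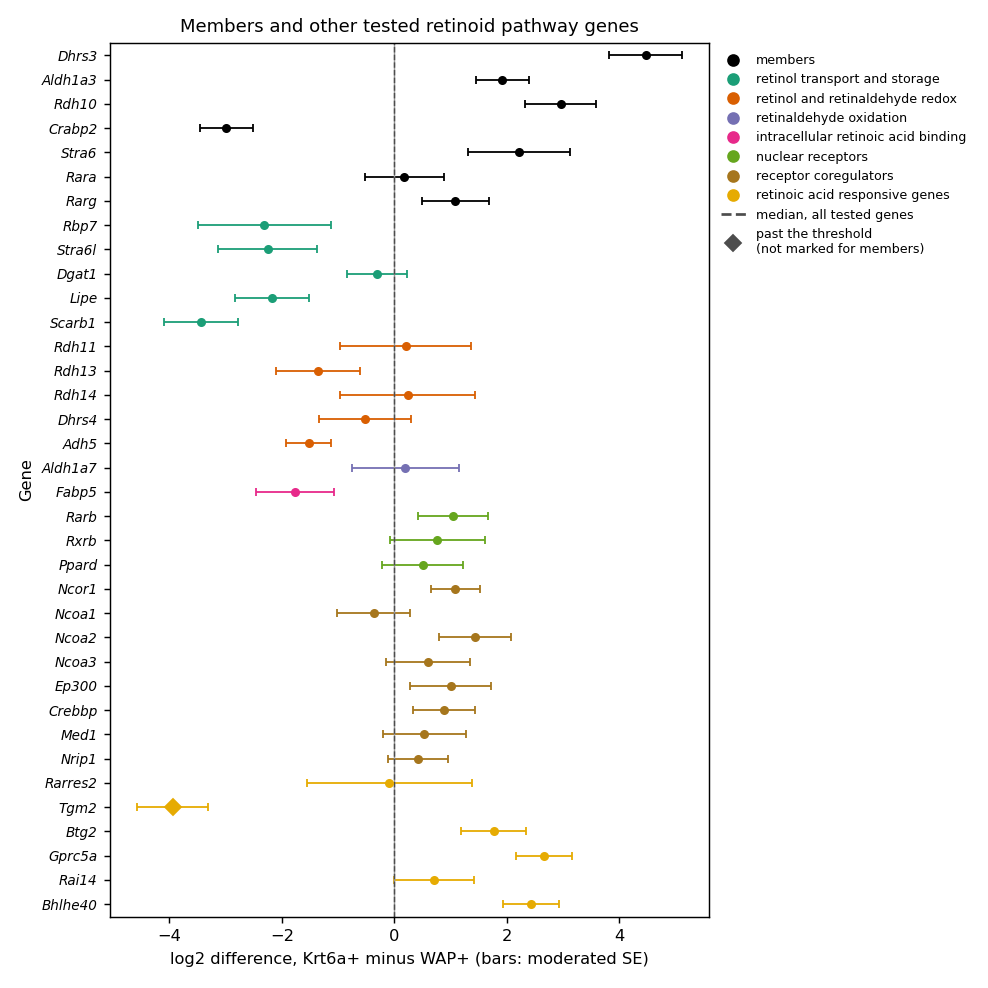
Log2 difference, Krt6a+ minus WAP+, of the 7 tested genes described here (black) and 29 of the 31 other tested pathway genes, colored by role, with bars for the moderated standard error. The dashed line is the median of all tested genes and the diamond marks Tgm2, the one gene of the 31 past the threshold. The transport and storage genes shown all lie below 0, and among the black symbols Crabp2 lies below 0, Rara close to 0 at 0.17 and the others above 0.

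Genes of retinol transport and storage had negative differences in all 6 tested members, none past the threshold (limma, 0 higher and 4 lower at an unadjusted p under 0.05). Of all tested genes 7.66% were higher and 9.45% lower at that unadjusted threshold. Their median log2 difference was -2.22. Scarb1 and Rbp7 reached FPKM 1 only in WAP+ libraries, where they were high, and Lipe in WAP+ libraries and in Krt6a+ library 3 (FPKM 1.01). Rbp7 and Lipe were named after their values were seen. The 6 untested genes included some with signal in a Krt6a+ library, such as Bco1 (FPKM 5.29 in Krt6a+ library 2 and 0 in the other 4). The shared sign of the tested genes thus depends in part on the filter of FPKM 1 in at least 2 libraries. The adipocyte marker Fabp4 was likewise at 0 in Krt6a+ libraries and high in WAP+ library 1, while the other 4 adipocyte markers were listed at 0 in all libraries. The sum of the endothelial markers was also highest in WAP+ library 1, at 7.31 against at most 0.66 in any other library. The part of either cell type in these differences was not tested. Scarb1, a lipoprotein receptor that takes up carotenoids, had 0.091 and 0.82 against 24.8, 11.8 and 8.34 (limma, log2 -3.45 ± 0.66 SE, adjusted p = 0.0594). Stra6l, the other cellular receptor for the retinol carrier, had 3.36 and 0 against 9.31, 16.7 and 4.12 (limma, log2 -2.26 ± 0.88 SE, adjusted p = 0.240). Between populations its values were thus ordered the opposite way to those of Stra6, while within Krt6a+ both genes were higher in library 2. Dgat1, an acyltransferase that can esterify retinol, overlapped between populations (37.0 and 14.8 against 37.5, 22.3 and 23.9). Lrat, the main retinol esterifying enzyme, was listed at 0 in all libraries.

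Of 17 other enzymes of retinol and retinaldehyde interconversion, 5 were tested, and none passed (limma, 0 higher and 1 lower at an unadjusted p under 0.05). Adh5, a widely expressed alcohol dehydrogenase, was the most abundant, with FPKM 14.8 and 21.9 in Krt6a+, against 59.1, 44.0 and 46.8 in WAP+ libraries (limma, log2 -1.53 ± 0.40 SE, adjusted p = 0.118). Rdh11, a retinaldehyde reductase like Dhrs3, varied within both populations, from 2.88 to 33.4 in Krt6a+ and from 1.26 to 18.3 in WAP+ libraries. Dhrs4 (5.60 and 1.95 against 4.06, 11.5 and 2.40) and Rdh14 (10.7 and 0 against 4.26, 3.95 and 0) overlapped as well. Adh5 and Rdh13, the fifth enzyme tested (2.02 and 0.11 against 2.36, 4.76 and 3.92, chosen after its values were seen), were lower in Krt6a+ libraries without overlap on the scaled values, for Rdh13 by a gap as small as 2.06 to 2.07.

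Fabp5, which binds retinoic acid in competition with Crabp2 in skin cells, had FPKM 47.6 and 9.61 in Krt6a+, against 93.3, 86.4 and 44.1 in WAP+ libraries (limma, log2 -1.77 ± 0.70 SE, adjusted p = 0.247). Crabp2 was at 0.455 times the FPKM of Fabp5 in Krt6a+ library 2, at 4.85 times in Krt6a+ library 3 and at 3.48, 3.56 and 3.13 times in WAP+ libraries, so Krt6a+ library 2 stood alone. Crabp1 had at most FPKM 0.57.

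None of the 3 tested nuclear receptors of the list passed (limma, 0 at an unadjusted p under 0.05). Rarb, itself a target of retinoic acid, had FPKM 8.21 and 8.59 in Krt6a+, against 5.66, 2.24 and 2.64 in WAP+ libraries (limma, log2 1.04 ± 0.62 SE, adjusted p = 0.436). Rxrb, a heterodimer partner, had 10.8 and 13.4 against 1.53, 9.27 and 12.2, and Ppard, the receptor served by Fabp5, 5.24 and 3.93 against 1.55, 2.04 and 5.27. Rxrg had FPKM 1.98 in Krt6a+ library 2 alone. Rxra, named after its values were seen because it is the main partner in skin, was listed at 0 in 3 libraries and had at most FPKM 1.38.

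All 9 coregulators were tested and none passed (limma, 1 higher and 0 lower at an unadjusted p under 0.05), with a median log2 difference of 0.59. Ncor1, a corepressor of receptors without ligand, had FPKM 30.7 and 32.6 in Krt6a+, against 17.8, 11.1 and 11.7 in WAP+ libraries (limma, log2 1.08 ± 0.44 SE, adjusted p = 0.261). Crebbp, an acetyltransferase coactivator, had 13.6 and 10.6 against 6.67, 4.64 and 5.54. Nrip1, a corepressor recruited by receptors with ligand, had 11.4 and 17.6 against 8.61, 8.18 and 12.2, and overlapped.

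Genes known to respond to retinoic acid had differences of both signs, and Rarb and Nrip1 are counted here as well as above. Of 16 listed, 9 were tested, and 0 were higher and 1 lower (limma, adjusted p under 0.05), with 3 higher and 2 lower at an unadjusted p under 0.05 and a median log2 difference of 0.70. For all tested genes the unadjusted shares were 7.66% and 9.45% and the median was -0.01. Tgm2, a transglutaminase induced by retinoic acid in many cells, had FPKM 0.072 and 0 in Krt6a+ libraries, against 22.6, 14.4 and 9.22 in WAP+ libraries (limma, log2 -3.94 ± 0.63 SE, adjusted p = 0.0453). It entered the fit only through the WAP+ libraries, where it was high, so its direction is not independent of the filter. Its call was lost under 11 of 14 alternatives, with adjusted p (limma) from 0.0376 to 0.200 over all 14. Among those that lost it were the fits without WAP+ library 1, 2 or 3 (0.141, 0.200 and 0.169) and with a replicate block (0.108). Number 1 occurs only in WAP+, so the block gave the same log2 difference as the fit without WAP+ library 1 (-3.75). The block is thus not a separate check of that difference. A pseudocount of 0.1 gave a log2 difference of -6.83 and one of 5 gave -1.99.

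The most abundant of these responsive genes had positive differences that did not pass. Gprc5a, an orphan receptor first found as induced by retinoic acid, had FPKM 208 and 235 in Krt6a+ libraries, against 68.7, 19.6 and 23.3 in WAP+ libraries (limma, log2 2.65 ± 0.50 SE, adjusted p = 0.0570). The Krt6a+ libraries were close to each other and above all WAP+ libraries. Bhlhe40, a transcription repressor, had 86.3 and 228 against 36.9, 15.4 and 21.8 (limma, log2 2.43 ± 0.50 SE, adjusted p = 0.0707), and Btg2, an antiproliferative gene, 66.4 and 283 against 55.2, 28.7 and 30.6 (limma, log2 1.77 ± 0.58 SE, adjusted p = 0.176). Stimuli other than retinoic acid also raise these genes.

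**Figure D4:**
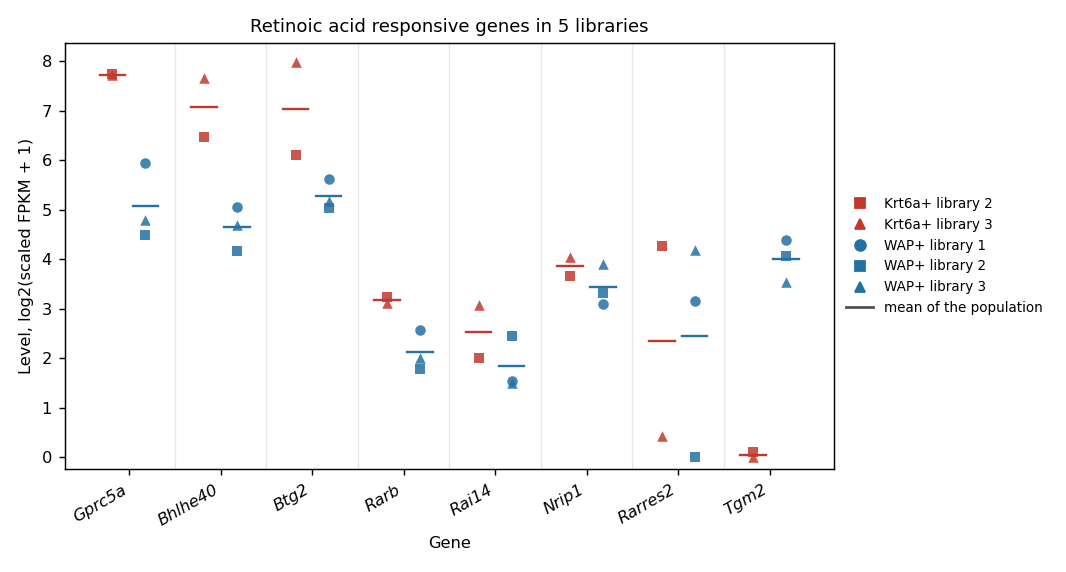
Level of 8 of the 9 tested retinoic acid responsive genes as log2(scaled FPKM + 1), ordered by their difference between populations, with symbols as for the genes of the pathway. Gprc5a, Bhlhe40 and Btg2 are higher in both Krt6a+ libraries (red) than in the WAP+ libraries (blue), and Tgm2 is lower.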

How the data were processed

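Per the labels' protocols, RNA of the sorted pools was copied and amplified with SMART-Seq v4, tagmented with Nextera and sequenced from both ends. That kit does not mark strand. The tools named are Cufflinks and TopHat, with mm10 as build, per the submitters' processing notes; their versions are not given. The deposited tables hold, per the file headers, FPKM with 95% bounds for 34535 RefSeq transcripts, and a coverage signal, which entered no result. FPKM was normalized by the authors for length and mapped fragments. Locus starts were raised by 1 to count from 1.

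Transcripts of a symbol were summed, divided by a median-of-ratios factor from the 5334 genes that reached FPKM 1 in every library, and compared as log2(scaled FPKM + 1) with limma 3.58.1 in R 4.3.3 (trend on, two-sided, 3 residual plus 4.87 prior degrees of freedom, Benjamini-Hochberg over 9682 genes at FPKM 1 or more in at least 2 libraries). Folds on this scale understate the change of low genes. The procedure was run on simulated data, with planted changes larger than most differences described here and none in genes near the floor. That run thus does not bear on smaller differences or on low genes. Amplification from few cells raises scatter and drop-out.

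Members and lists were chosen with earlier results of these data known. Named were all members, pathway genes past the threshold, up to 4 per role with the highest mean, and the 3 closest profiles to Dhrs3 and Aldh1a3. Other genes are marked as chosen after their values were seen or are named as listed at 0. Some genes of the lists are not reported here by name but stay in the counts. Alternatives covered pseudocount, scaling, filter, trend, transcript choice, a replicate block and each library left out.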

Additional observations from a re-analysis of the deposited data

How the results depend on the processing

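Of the genes described, Dhrs3, Aldh1a1, Aldh1a3, Rdh10, Stra6, Rarg and Crabp2 kept their direction under each alternative that gave a value, while Rara turned negative when only its highest transcript was counted and without WAP+ library 3. The count of genes past the threshold, 67 of 9682 (25 higher and 42 lower), moved to 26 (6 and 20) and 72 (41 and 31) for pseudocounts of 0.1 and 5, and was 78 with quantile normalization (39 and 39), 24 with the highest transcript per symbol, 5 with no filter, 163 with a filter of FPKM 5, 34 with a replicate block and 16 when the variance trend was switched off. Leaving out 1 library gave 5 to 144: 6, 5 and 6 without WAP+ library 1, 2 and 3, 144 without Krt6a+ library 3 and 65 without Krt6a+ library 2. The other pathway genes past the threshold numbered 1, which became 0 with a pseudocount of 0.1 or 5, with no scaling, with the highest transcript, with no filter, with no trend and with the replicate block, 2 with quantile normalization (Gprc5a and Tgm2), 3 with a filter of FPKM 5 (Gprc5a, Scarb1 and Tgm2), and 0 to 1 with 1 library left out. The causes were not tested. A lone Krt6a+ library was assumed to vary like the others.

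Library numbers 2 and 3 occur in both populations, but nothing in the labels pairs them. Deviations from the population means correlated at 0.050 (number 2) and 0.00027 (number 3) across genes, which are not independent replicates. Krt6a+ library 3 and WAP+ library 1, of unlike number, gave 0.051. With 2 Krt6a+ libraries their deviations mirror each other, so these values cannot decide on pairing. Number 1 occurs only in WAP+, so a replicate block gave the same differences as leaving out WAP+ library 1. Depth, of which no fragment totals are known, limits most the genes near FPKM 1, such as Rara, Aldh1a1 and Cyp26b1.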

Other observations

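Several enzymes of vitamin A metabolism were measured almost entirely in a single library. Sdr16c6, a retinol dehydrogenase of the skin, had FPKM 14.0 in Krt6a+ library 2 and was listed at 0 in the other 4 libraries. Adh7, an alcohol dehydrogenase of stratified epithelia that oxidises retinol, had 8.60 in the same library, 0.10 in Krt6a+ library 3 and 0 in WAP+ libraries, and Bco1, which cleaves beta-carotene to retinaldehyde, had 5.29 in Krt6a+ library 2 alone. In WAP+ library 1 Dhrs9 had 5.60 and Adh1 4.12, and both were at 0.060 or below elsewhere. These genes did not reach the level needed for testing and were chosen after their values were seen.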
